A study of Mus musculus with 10 samples.

Results

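The 37 genes described here are markers of neuronal differentiation and of the synapse, chosen by symbol from the 54446 gene identifiers of the count files. They fall into 6 roles, with 6 RNA-binding proteins, 13 proteins of microtubules and the growth cone, 5 intermediate filament proteins, 7 proteins of synaptic vesicles and their release, 3 adhesion molecules and 3 other neuronal proteins. RNA of neuroblastomas that arise in TH-MYCN mice was sequenced after selection of polyadenylated transcripts. In these animals the tyrosine hydroxylase promoter drives human MYCN in the sympathetic lineage, from which the tumours arise. All 10 libraries came from this strain. The groups were n = 3 libraries of untreated tumours (replicates 1, 2 and 3), n = 3 at 24 h of a combination of MLN8237 and AZD6738 (replicates 2, 3 and 4) and n = 4 at 5 days of it (replicates 1 to 4). MLN8237 (alisertib) inhibits Aurora-A, a kinase of mitosis, and AZD6738 (ceralasertib) inhibits ATR, the kinase of the replication stress response. The titles name a combination, whereas the design text joins the drug names with "or". The labels give no vehicle, dose, age or number of mice, and no link between a library and a mouse, so p-values measure only the spread between these libraries.

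Neuroblasts of the sympathetic lineage express part of the neuronal programme before they mature. As they differentiate, they extend neurites that are built on microtubules and neurofilaments, guided by growth cones, and they make vesicles that release catecholamines. Neuronal RNA-binding proteins stabilise and splice many of the transcripts involved. In non-neuronal cells the repressor REST holds many of these genes silent, and the splicing factor PTBP1 represses neuronal exons. High levels of many of the genes below in a neuroblastoma are usual.

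Libraries held 5576926 to 5696436 counts, and 3 counts, taken as the limit that a count of 0 allows, corresponded to 0.516 to 0.655 CPM, the unit used below for counts scaled to the TMM-adjusted size of each library. Such a limit covers counting error and nothing else. One of the 5-day libraries, replicate 1, stood apart from the other 9, with a mean Spearman correlation across genes of 0.740, against 0.944 to 0.954 for the others. In this library, markers of macrophages summed to 12738 CPM, against 544 to 1527 CPM in the others, and markers of fibroblasts to 18987 CPM, against 273 to 2945 CPM. The defining markers of sympathetic identity were present in all libraries: 19 adrenergic genes summed to 873 CPM in 5-day library 1 and to 2354 to 3873 CPM in the others. Counts of called genes are therefore given with all libraries and without 5-day library 1, and so are most log2 fold changes at 5 days. The biological coefficient of variation was 18.9% without this library and 40.8% with it. In bulk tumour RNA, fewer tumour cells and less RNA per tumour cell cannot be told apart.

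RefSeq promoter windows (GRCm38.p6, 250 bases before to 50 after the annotated start) were matched by symbol to 23 of the 37 genes. Shown here are the first listed windows of 5 of the 9 genes with an unadjusted p under 0.05 at 5 days against 24 h once 5-day library 1 was left out: Elavl3 at chr9:22051974-22052273 (minus strand), Elavl4 at chr4:110351862-110352161 (minus strand), Stmn3 at chr2:181314451-181314750 (minus strand), Dcx at chrX:143933170-143933469 (minus strand) and Crmp1 at chr5:37241808-37242107 (plus strand). Each is written 5′ to 3′ on the strand of the gene. Capitals mark matches to the searched motifs on either strand, which were CACGTG (an E-box that MYC family proteins bind), CAGCTG (an E-box that proneural factors bind), TATAAA (the TATA box) and the left and right parts of the REST site, TCAGCACC and GGACAG. These motifs do not overlap each other in the windows shown.
Elavl3: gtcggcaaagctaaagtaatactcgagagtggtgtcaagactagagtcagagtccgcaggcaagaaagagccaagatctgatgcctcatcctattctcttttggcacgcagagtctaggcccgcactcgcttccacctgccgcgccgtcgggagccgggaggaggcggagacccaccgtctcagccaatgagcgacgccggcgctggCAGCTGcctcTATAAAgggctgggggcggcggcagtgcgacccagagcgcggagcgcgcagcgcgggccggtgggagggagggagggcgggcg
Elavl4: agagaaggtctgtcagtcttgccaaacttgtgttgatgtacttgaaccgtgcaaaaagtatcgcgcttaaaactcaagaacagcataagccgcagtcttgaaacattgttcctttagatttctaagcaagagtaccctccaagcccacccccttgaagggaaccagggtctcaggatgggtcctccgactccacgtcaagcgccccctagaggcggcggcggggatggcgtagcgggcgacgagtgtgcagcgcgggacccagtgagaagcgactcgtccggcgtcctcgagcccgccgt
Stmn3: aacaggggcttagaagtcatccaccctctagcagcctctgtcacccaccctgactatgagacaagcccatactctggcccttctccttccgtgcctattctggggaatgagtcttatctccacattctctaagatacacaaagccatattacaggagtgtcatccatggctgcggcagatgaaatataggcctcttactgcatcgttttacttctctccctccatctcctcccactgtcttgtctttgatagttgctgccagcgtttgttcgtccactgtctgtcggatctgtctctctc
Dcx: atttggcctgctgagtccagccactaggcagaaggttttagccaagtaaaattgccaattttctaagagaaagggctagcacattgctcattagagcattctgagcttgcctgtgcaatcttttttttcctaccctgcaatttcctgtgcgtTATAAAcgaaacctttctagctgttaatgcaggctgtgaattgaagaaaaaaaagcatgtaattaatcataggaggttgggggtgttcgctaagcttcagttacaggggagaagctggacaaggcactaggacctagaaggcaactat
Crmp1: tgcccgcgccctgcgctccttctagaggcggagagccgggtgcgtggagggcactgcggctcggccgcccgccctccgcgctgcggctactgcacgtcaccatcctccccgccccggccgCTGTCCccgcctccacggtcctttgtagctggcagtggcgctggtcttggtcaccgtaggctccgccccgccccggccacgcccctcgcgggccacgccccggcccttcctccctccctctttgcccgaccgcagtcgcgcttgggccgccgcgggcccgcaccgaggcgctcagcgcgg
The Elavl3 window held CAGCTG and TATAAA, the Dcx window TATAAA, and the Crmp1 window the right part of the REST site in reverse complement, while the first Elavl4 window and the Stmn3 window held none of these letters. Of the other listed windows of Elavl4, numbers 2 and 3 hold CAGCTG. Over the first windows of the 23 genes, CACGTG was found in 0, against 7.15% of all 32851 windows of the table. CAGCTG was found in 5 (21.7%, against 16.3% of all windows), namely in Elavl2, Elavl3, Nova1, Ina and Stx1a. TATAAA was found in 4 (17.4%, against 13.6%), the left part of the REST site in 2 (8.70%, against 1.65%), Tubb3 and Syn1, and its right part in 7 (30.4%, against 22.2%). The median GC content was 59.0% over the 23 windows and 52.7% over all windows. A match of this kind describes the letters only.

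Of the 37 genes, 35 had counts, and the same 35 passed the filter on low counts in both fits. Tubb3, the neuronal beta-tubulin, and Nefl, the light neurofilament chain, were listed at 0 counts in all 10 libraries. These zeros are not read as silence. Tuba1a, an alpha-tubulin gene that dividing and neuronal cells use, was likewise listed at 0, 0.349 and 0 CPM in untreated tumours, and Nefm, the partner of Nefl, was among the most abundant of the genes. In GENCODE M21, Nefl shares exon bases with Nefm on the opposite strand and has 2272 of its 3380 exon bases free of other genes, and all 1868 exon bases of Tubb3 are free. The sources used here do not state how reads in overlapping genes were counted. Of the 37 genes, 11 share exon bases with a gene on the opposite strand, among them Nefm (with Nefl), Ina, Uchl1, Ncam1, Syn1, Syp and Rab3a. A further 4, Elavl3, Stmn1, Nova1 and L1cam, share exon bases with a gene on the same strand. Of Elavl3, 6634 of 6890 exon bases are free of other genes. The counts of all these genes are uncertain to that extent.

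In untreated tumours, levels per length ranged over more than 3 orders of magnitude. Per kilobase of exon, Uchl1, a ubiquitin hydrolase abundant in neurons, led with 562 ± 39.4 CPM per kb (SD, n = 3, as for the values that follow). Stmn1, the microtubule-destabilising stathmin of proliferating neuroblasts, had 285 ± 26.7 CPM per kb and Nefm, the medium neurofilament chain, 192 ± 17.1 CPM per kb. Stmn3 (145 ± 8.48 CPM per kb), the growth cone protein gene Gap43 (133 ± 4.21) and the internexin gene Ina (116 ± 10.1) followed. The ranges of mean ± SD overlap for Stmn3 and Gap43 and do not overlap for Gap43 and Ina. These genes were measured in the same libraries, so such overlap does not test whether they differ, and no test was run. The RNA-binding genes ran from 88.3 ± 4.74 CPM per kb for Elavl3 to 1.66 ± 1.11 CPM per kb for Rbfox3, which encodes the mature neuron marker NeuN. Synaptic vesicle genes were intermediate, from 55.0 ± 2.47 CPM per kb for Rab3a, a vesicle GTPase, to 10.9 ± 3.01 CPM per kb for Syt1, the calcium sensor of release. Prph, which encodes the peripheral filament protein peripherin, was lowest at 0.408 ± 0.183 CPM per kb.

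**Figure D1:**
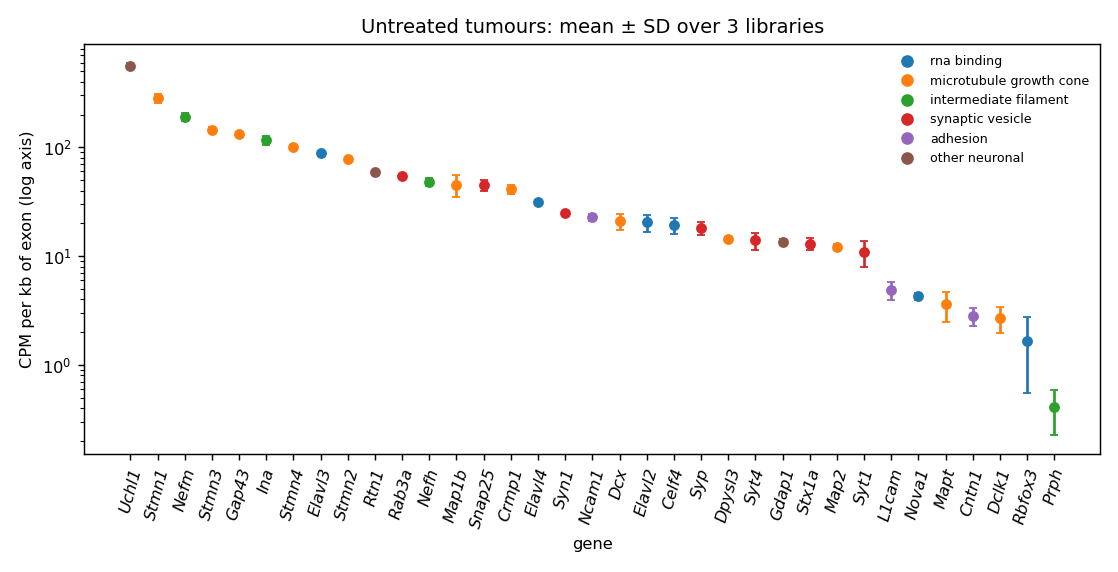
Level of the 35 genes with counts in untreated tumours, in CPM per kb of exon on a log axis, as mean ± SD over 3 libraries, coloured by role. Uchl1 and Stmn1 are highest, synaptic vesicle genes lie in the middle, and Rbfox3 and Prph are lowest.

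Over the 9 libraries without 5-day library 1, levels were steady. The summed level of the 37 genes was 8067, 8754 and 8307 CPM in untreated tumours, 7817, 8620.4 and 8854 CPM at 24 h, and 7635, 7796 and 8200.4 CPM in 5-day libraries 2, 3 and 4. These ranges overlap between each pair of times. The coefficient of variation of a gene over the 9 libraries had a median of 14.0%, and 29 of 35 genes stayed under 20%. The same values over all tested genes are not given here, so whether these genes were steadier than others at a like level was not tested. Rab3a was the steadiest at 4.61%, close to the 3.73% that counting alone gives at its level. Ina (6.90%), Gdap1 (8.61%), Stx1a (8.72%) and Uchl1 (8.73%) were next. Prph (128%) and Rbfox3 (47.5%) varied most, both at low counts.

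**Figure D2:**
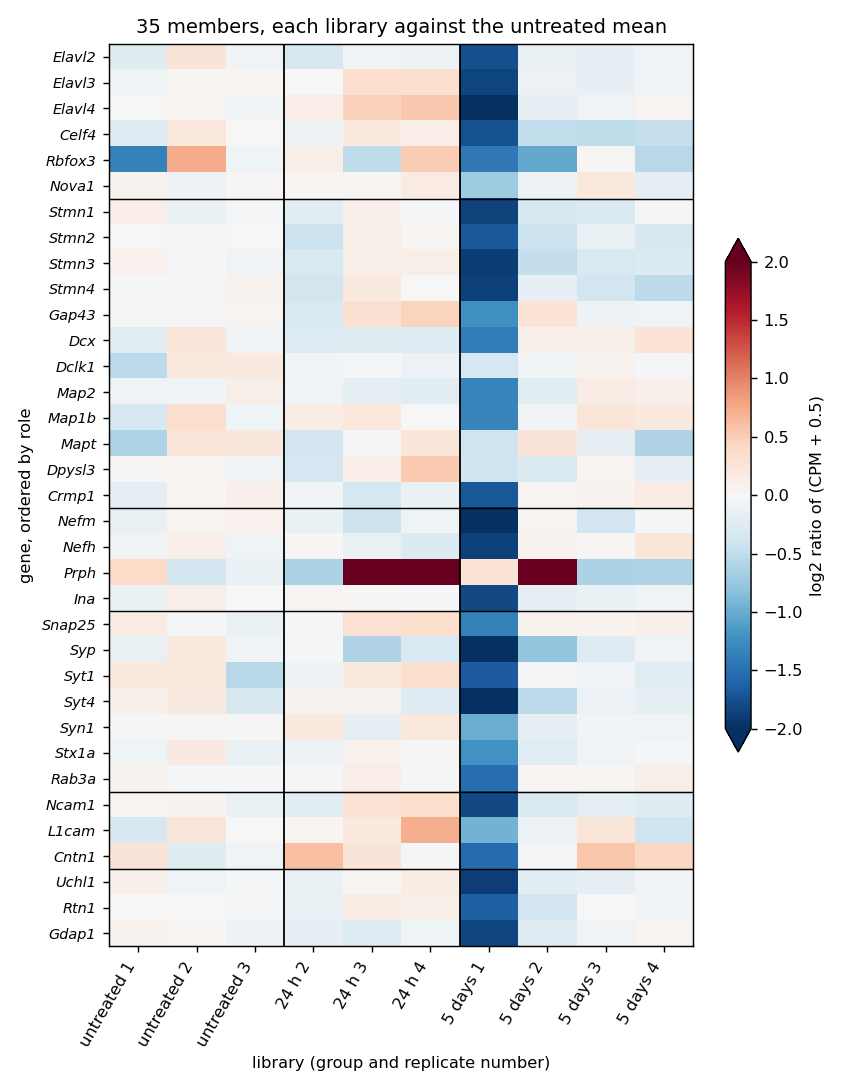
Log2 ratio of each library's CPM (after adding 0.5 CPM) to the mean of the 3 untreated libraries, for the 35 genes with counts, ordered by role, with libraries in time order. The column of 5-day library 1 holds the lowest value in 32 of the 35 genes, and the other columns are paler, apart from single libraries in Prph and Rbfox3.

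Untreated tumours and tumours after 24 h of treatment were compared to see whether the neuronal programme differed early. The comparisons with untreated tumours share the same untreated libraries. With all libraries, 20 of the 35 genes had a positive log2 fold change (48.5% of all tested genes did) and 15 a negative one, and none passed the test. The number called at a Benjamini-Hochberg adjusted p under 0.05 in edgeR's quasi-likelihood test was 0 of 35, against 0% of all 14956 tested genes. At an unadjusted p under 0.05 there was 1 gene, Prph, against 1.76% of all tested genes, and DESeq2 called 0 of the 35 and 0 of the whole table. The median log2 fold change of the genes was 0.02, and that of all tested genes was -0.01. Without 5-day library 1, edgeR called 0 of the 35, against 0.0136% of all tested genes, and 4 had an unadjusted p under 0.05 (11.4%, against 8.1% of all tested genes): Elavl3, Elavl4 and Prph were higher at 24 h (4.56% of all tested genes were) and Dcx was lower (3.54% were). The groups did not overlap for Elavl4, which was higher, and for Dcx and Map2, which were lower (3 of 35 genes, against 13.8% of all tested genes). In DESeq2 without 5-day library 1, 105 genes of the whole table were called at 24 h, and 0 of them were among the 35. By role, 5 of 6 RNA-binding genes, 5 of 7 vesicle genes and 3 of 3 adhesion genes had positive log2 fold changes, as did 3 of 12 microtubule and growth cone genes, 2 of 4 intermediate filament genes and 2 of 3 other neuronal genes; differences between the roles were not tested.

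The comparison of 5 days with no treatment asks how the genes stood at the later time of treatment. With all libraries, 33 of 35 genes were lower on average (49.4% of all tested genes were), the exceptions being Prph and Cntn1, and none passed the test. The number called was 0 of 35 (edgeR, adjusted p under 0.05), against 0% of all tested genes. DESeq2 called 0 of the 35 and 21 genes of the whole table, and without 5-day library 1 it called 0 of the 35 and 77 of the table. At an unadjusted p under 0.05 there was 1 gene, Celf4, against 8.4% of all tested genes. The median log2 fold change was -0.36, against 0.01 over all tested genes, and without 5-day library 1 it was -0.11, against -0.003 over all tested genes. Without that library edgeR called 0 of the 35, against 0% of all tested genes. Of the 35, 25 were lower (50.5% of all tested genes were), and 4 had an unadjusted p under 0.05, Celf4, Stmn2, Stmn3 and Stmn4, all lower (11.4%, against 3.86% of all tested genes that were lower at this threshold). In 6 genes, Celf4, Stmn2, Stmn3, Stmn4, Syn1 and Ncam1, each 5-day library lay below each untreated library, against 4.89% of all tested genes with all libraries and 7.6% without 5-day library 1.

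The comparison of 5 days with 24 h asks whether the times of treatment differed from each other, and it tests the difference between the other comparisons, with which it shares its libraries. With all libraries, 34 of 35 genes were lower at 5 days (47.2% of all tested genes were), with a median log2 fold change of -0.36, against 0.03 over all tested genes. Of the 35, 0 were called (edgeR, adjusted p under 0.05), against 0% of all tested genes, and 1, Celf4, had an unadjusted p under 0.05, against 6.3% of all tested genes. DESeq2 called 0 of the 35 and 3 genes of the whole table. Without 5-day library 1, 25 of the 35 were lower (50.5% of all tested genes were), and 9 genes had an unadjusted p under 0.05 (25.7%, against 7.76% of all tested genes). Of these, Elavl3, Elavl4, Celf4, Stmn3, Stmn4 and Ncam1 were lower at 5 days (4.09% of all tested genes were) and Dcx, Crmp1 and Nefh were higher (3.67% were). None passed the adjusted threshold in edgeR, which called 0% of all tested genes, and the smallest adjusted p was 0.602. The groups did not overlap for Elavl3, Elavl4, Celf4 and Ina, which were lower at 5 days, against 4.35% of all tested genes with all libraries and 6.68% without 5-day library 1. Without this library they did not overlap for Dcx and Crmp1 either, which were higher, against 5.25% of all tested genes. In DESeq2 without this library, Celf4 and Elavl4 were called, with log2 fold changes of -0.56 ± 0.13 (SE, adjusted p = 0.0210) and -0.44 ± 0.12 (SE, adjusted p = 0.0488). That fit called 20 genes over the whole table. Stmn2, Stmn4, Map2 and Crmp1 were chosen for this text after their values were seen.

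**Figure D3:**
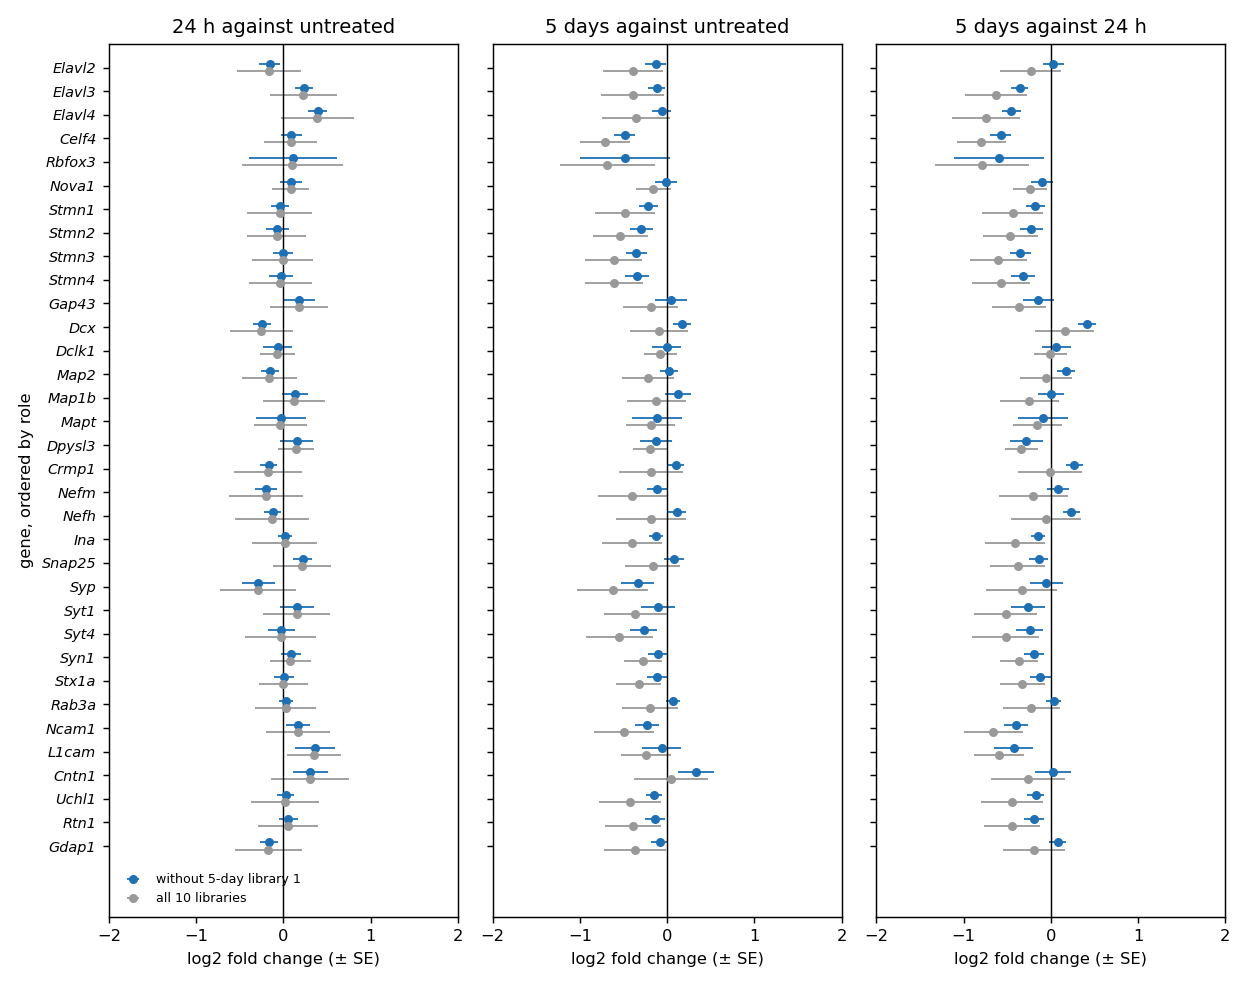
Log2 fold change ± SE (edgeR) of 34 genes in the 3 comparisons, with all 10 libraries (grey) and without 5-day library 1 (blue); Prph, at few counts, is left out. Without that library most values at 5 days lie closer to 0, with smaller errors except for Mapt, while against 24 h those of Dcx, Dclk1, Map2, Crmp1 and Nefh lie farther from 0, as do those of Dcx, Map1b and Cntn1 against untreated; Celf4, Elavl4, Elavl3, Stmn3 and Ncam1 stay below 0 against 24 h while Dcx, Crmp1 and Nefh lie above it.

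Among the RNA-binding genes, Elavl3, Elavl4 and Celf4 were lower in every 5-day library than in every 24 h library. Elavl3 (ENSMUSG00000003410; chr9:22015005-22052023, minus strand in GRCm38), which encodes the Hu protein HuC that stabilises neuronal mRNAs, was at 571, 627 and 628 CPM in untreated tumours, 606, 766 and 769 CPM at 24 h and 170.2, 559, 544 and 577 CPM at 5 days. Levels in 24 h libraries 3 and 4 were the highest of the 10, 24 h library 2 lay among the untreated libraries, and 5-day libraries 2 to 4 lay below all 24 h libraries. Its log2 fold change was 0.24 ± 0.10 (SE) at 24 h against untreated and -0.36 ± 0.10 at 5 days against 24 h without 5-day library 1, with adjusted p = 0.580 and 0.602 in edgeR. With all libraries the values were 0.23 ± 0.38 and -0.63 ± 0.36.

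Elavl4 (ENSMUSG00000028546; chr4:110203722-110351909, minus strand), the gene of the related HuD, was at 172, 175 and 164 CPM in untreated tumours, 188, 234 and 247 CPM at 24 h and 42.1, 151, 162 and 177 CPM at 5 days. Each 24 h library lay above each untreated and each 5-day library. At 24 h it averaged 223 ± 31.0 CPM, against 170.3 ± 5.42 CPM in untreated tumours (SD, n = 3 each), and 5-day libraries 2 to 4 averaged 163 ± 13.1 CPM (SD, n = 3). The log2 fold change of 0.39 ± 0.11 (SE) at 24 h against untreated had an adjusted p = 0.361, and that of -0.45 ± 0.11 at 5 days against 24 h had an adjusted p = 0.602 (edgeR, without 5-day library 1). With all libraries these values were 0.39 ± 0.42 and -0.74 ± 0.39. In the fit of all 10 libraries blocked on replicate number, the value at 24 h had the other sign, at -0.072. In that fit number 1 held only untreated library 1 and 5-day library 1, the library that stood apart. The 24 h libraries 2 and 3 were at 188 and 234 CPM, against 175 and 164 CPM in the untreated libraries of the same numbers. Leaving out 1 library at a time, without a block, gave 0.31 to 0.49 at 24 h.

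Celf4 (ENSMUSG00000024268), which encodes a regulator of neuronal splicing and translation, was at 138, 192 and 165 CPM in untreated tumours, 154, 189 and 182 CPM at 24 h and 49.1, 117, 116 and 119.8 CPM at 5 days. All 4 libraries of the 5-day group lay below all others, and 5-day libraries 2, 3 and 4 were at 118 ± 1.81 CPM (SD, n = 3). Counting alone gives a coefficient of variation of 3.38% at the mean level of Celf4 over the 9 libraries. This SD is smaller than that counting error, so it understates the spread between libraries. The log2 fold change of Celf4 without 5-day library 1 was -0.48 ± 0.12 (SE) at 5 days against untreated (edgeR adjusted p = 0.305) and -0.58 ± 0.12 against 24 h (edgeR adjusted p = 0.602). With all libraries these values were -0.71 ± 0.28 (edgeR adjusted p = 0.538) and -0.80 ± 0.28 (edgeR adjusted p = 0.581). At 24 h against untreated its log2 fold change was 0.09 ± 0.12 without 5-day library 1.

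Elavl2, Nova1 and Rbfox3 overlapped between 24 h and untreated libraries. Elavl2, another ELAV gene, had log2 fold changes of -0.16 ± 0.12 at 24 h and -0.13 ± 0.12 at 5 days against untreated, without 5-day library 1, and -0.16 ± 0.37 and -0.40 ± 0.34 with it. Nova1, a splicing factor of neurons, was at 38.2, 38.2 and 42.0 CPM at 24 h, against 39.2, 34.6 and 38.0 CPM in untreated tumours, ranges that overlap. Rbfox3 spread from 3.27 to 16.4 CPM over all libraries, and its SE of 0.51 at 5 days against 24 h exceeds most differences described here.

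**Figure D4:**
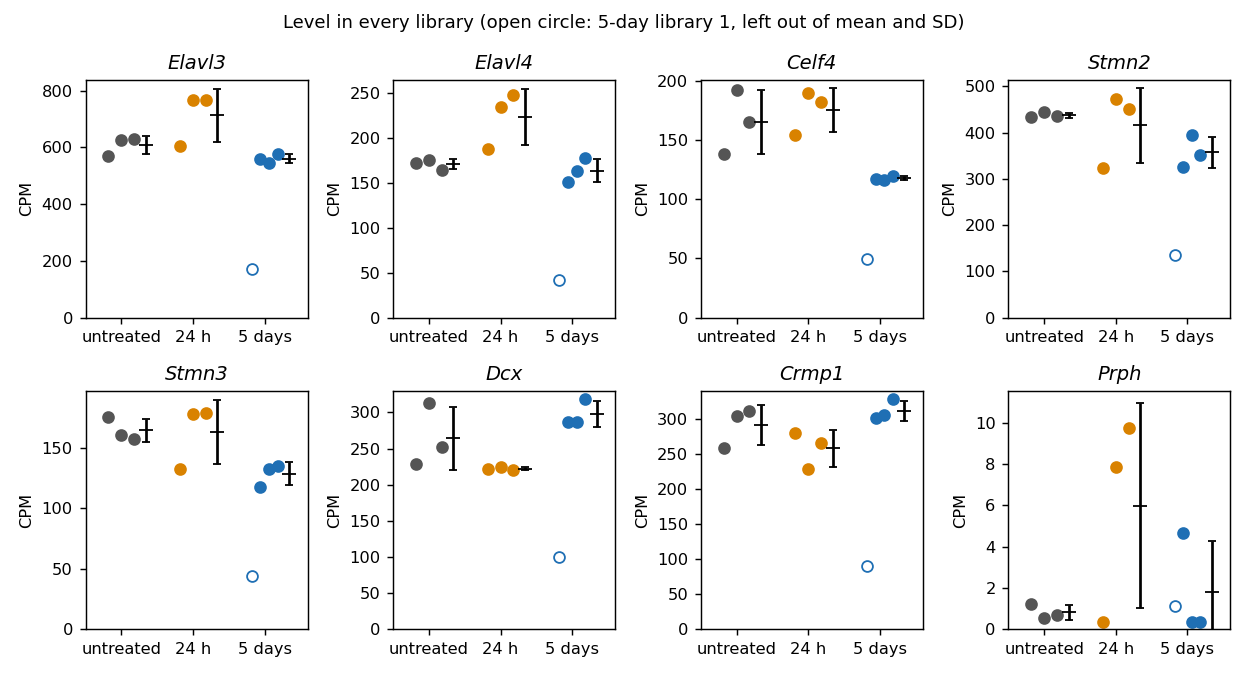
CPM of 8 genes in every library by time, with the mean ± SD (black) of each group; the open circle is 5-day library 1, which the mean and SD leave out. Elavl3 and Elavl4 are highest at 24 h, Celf4 and Stmn3 are lowest at 5 days, Dcx and Crmp1 are higher at 5 days than at 24 h, and Prph is high in single libraries.

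Of the microtubule and growth cone genes, Stmn3 and Stmn4 were lower and Dcx and Crmp1 higher on average at 5 days than at 24 h, once 5-day library 1 was left out. Stmn3 (ENSMUSG00000027581; chr2:181306459-181314500, minus strand), a stathmin of neurites, was at 176, 161 and 158 CPM in untreated tumours, 133, 179 and 179 CPM at 24 h and 44.1, 118, 133 and 136 CPM at 5 days. The 5-day libraries lay below all untreated libraries, and 24 h library 2 lay among them. Without 5-day library 1 its log2 fold change was -0.35 ± 0.12 (SE) at 5 days against untreated and -0.35 ± 0.12 against 24 h (edgeR adjusted p = 0.463 and 0.602), and with all libraries these values were -0.61 ± 0.33 and -0.60 ± 0.33. Stmn2, the stathmin SCG10 of growing axons, was at 434, 444 and 436 CPM in untreated tumours, 324, 473 and 451 CPM at 24 h and 135, 326, 394 and 351 CPM at 5 days. Stmn4 was at 187, 187 and 202 CPM in untreated tumours, 149, 220.1 and 193 CPM at 24 h and 52.1, 172, 147 and 134 CPM at 5 days. In both, 24 h library 2 was the lowest of its group, and each 5-day library lay below each untreated one. Log2 fold changes at 5 days against untreated were -0.29 ± 0.13 (SE) for Stmn2, -0.35 ± 0.14 for Stmn4 and -0.22 ± 0.11 for Stmn1 without 5-day library 1. With all libraries they were -0.54 ± 0.31 for Stmn2, -0.61 ± 0.33 for Stmn4 and -0.48 ± 0.35 for Stmn1.

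Dcx (ENSMUSG00000031285; chrX:143855842-143933311, minus strand), which encodes the microtubule protein doublecortin of migrating neuroblasts, was at 228, 313 and 252 CPM in untreated tumours, 221, 224 and 221 CPM at 24 h and 99.5, 287, 286 and 319 CPM at 5 days. The 24 h libraries were nearly equal and lay below every untreated library, and 5-day libraries 2 to 4 lay above every 24 h library. Untreated libraries 1 and 3 lay in between, and untreated library 2 lay within the range of 5-day libraries 2 to 4. The mean was 222 ± 1.92 CPM at 24 h, against 264 ± 43.8 CPM in untreated tumours (SD, n = 3 each). The SD of Dcx at 24 h is smaller than counting error, which alone gives 2.58% at its mean level over the 9 libraries. Its log2 fold change without 5-day library 1 was -0.25 ± 0.11 (SE) at 24 h against untreated and 0.42 ± 0.11 at 5 days against 24 h (edgeR adjusted p = 0.593 and 0.602). With all libraries these values were -0.25 ± 0.36 and 0.16 ± 0.34, and the difference at 24 h was -0.11 without untreated library 2.

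Crmp1, a collapsin response mediator of axon guidance, was at 258, 304 and 311 CPM in untreated tumours, 279.8, 228 and 265 CPM at 24 h and 89.9, 301, 306 and 328 CPM at 5 days. As for Dcx, 5-day libraries 2 to 4 lay above all 24 h libraries, with a log2 fold change of 0.27 ± 0.10 (SE, edgeR adjusted p = 0.602, without 5-day library 1). With all libraries this value was -0.01 ± 0.37. Its relative Dpysl3 differed by -0.28 ± 0.19 in that comparison without 5-day library 1 and by -0.34 ± 0.19 with it. Map1b, the gene of this role with the highest mean CPM and a scaffold of growing axons, was at 573, 902 and 677 CPM in untreated tumours, 791, 834 and 717 CPM at 24 h and 286, 679.6, 847 and 823 CPM at 5 days. Its groups overlapped in all comparisons once 5-day library 1 was left out, with log2 fold changes of 0.13 ± 0.15 (SE) at 24 h and 0.13 ± 0.15 at 5 days against untreated, the second of which was -0.12 ± 0.34 with all libraries. Gap43 was at 163, 249 and 274 CPM at 24 h, against 198, 199 and 209.8 CPM in untreated tumours. Map2, a dendritic microtubule protein, had a log2 fold change of -0.16 ± 0.10 at 24 h against untreated, and Mapt (tau) and Dclk1 had -0.03 ± 0.28 and -0.06 ± 0.17.

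The neurofilament genes Nefm and Nefh overlapped between all groups once 5-day library 1 was left out. Nefm (ENSMUSG00000022054; chr14:68082590-68124846, minus strand) was at 997, 1154 and 1180.2 CPM in untreated tumours, 1012, 837 and 1047 CPM at 24 h and 278, 1149, 855 and 1081 CPM at 5 days. Nefh, the heavy chain, was at 183, 211 and 181 CPM in untreated tumours, 196, 172 and 158 CPM at 24 h and 52.4, 201, 194 and 228 CPM at 5 days. The 24 h values of Nefh reach into the range of the untreated ones, and 5-day libraries 2 and 4 lie above all 24 h values, with 5-day library 3 just below 24 h library 2. The log2 fold change of Nefh at 5 days against 24 h was 0.24 ± 0.10 (SE, edgeR adjusted p = 0.627) without 5-day library 1 and -0.06 ± 0.40 with it. Ina was at 344, 409.8 and 374 CPM in untreated tumours, 389, 382 and 368 CPM at 24 h and 107, 329, 344 and 359.7 CPM at 5 days. Each 5-day value of Ina lay below each 24 h value, with a log2 fold change of -0.15 ± 0.08 (SE, edgeR adjusted p = 0.675) without 5-day library 1 and -0.41 ± 0.34 with it.

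Prph (ENSMUSG00000023484; chr15:99055174-99058978, plus strand) was at 1.23, 0.524 and 0.697 CPM in untreated tumours, 0.345, 7.86 and 9.76 CPM at 24 h and 1.09, 4.65, 0.344 and 0.355 CPM at 5 days. The libraries 3 and 4 at 24 h and 5-day library 2 were high, and 24 h library 2 was as low as 5-day libraries 3 and 4. Those low values lie under the limit of 3 counts. The log2 fold change at 24 h against untreated was 2.84 ± 1.22 (SE, edgeR adjusted p = 1.00) with all libraries, 2.30 without 24 h library 4 and 3.40 without 24 h library 2. Schwann cell and glial markers were higher in the same group: 7 markers summed to 34.9, 54.3 and 67.6 CPM at 24 h, against 15.9, 26.9 and 18.5 CPM in untreated tumours. All 5 of those that were tested had positive log2 fold changes, and 4 of them did not overlap between the groups, against 13.8% of all tested genes. None of the 5 passed the test, with edgeR adjusted p = 1.00 for each with all libraries and 0.363 to 0.622 without 5-day library 1. Sox10, the glial lineage factor, was at 5.87, 8.03 and 14.6 CPM, against 1.75, 2.44 and 2.27 CPM in untreated tumours. The 10 macrophage markers summed to 1182, 1422 and 1356 CPM at 24 h, against 928, 544 and 818 CPM in untreated tumours. Their part in the 24 h values of Prph, Elavl4, L1cam and Ncam1 was not tested.

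None of the 7 vesicle genes had an unadjusted p under 0.05 in edgeR in any of the 3 comparisons, with all libraries or without 5-day library 1. Snap25, a SNARE protein of vesicle fusion, was at 339.8, 299 and 273 CPM in untreated tumours, 300.4, 370.4 and 388 CPM at 24 h and 119, 318, 319 and 328 CPM at 5 days. Syp, the vesicle membrane protein synaptophysin, was at 84.7, 108 and 89.9 CPM in untreated tumours, 93.2, 61.8 and 76.0 CPM at 24 h and 20.3, 55.1, 78.8 and 90.1 CPM at 5 days. Syn1, which tethers vesicles, was at 78.8, 82.8 and 82.6 CPM in untreated tumours, 93.05, 70.7 and 94.1 CPM at 24 h and 40.8, 70.8, 78.3 and 77.8 CPM at 5 days. For Snap25 and Syp the 24 h range overlaps the untreated one, while all 5-day values of Syn1 lie under the lowest untreated value, those of libraries 3 and 4 by little. Log2 fold changes without 5-day library 1 were 0.22 ± 0.11 (SE) for Snap25 at 24 h, -0.29 ± 0.19 for Syp at 24 h and -0.34 ± 0.19 for Syp at 5 days, each against untreated. With the replicate number as a block and all libraries, the value of Snap25 had the other sign, at -0.085. Its 24 h libraries 2 and 3 were at 300.4 and 370.4 CPM, against 299 and 273 CPM in the untreated libraries of the same numbers. With all libraries the Syp values were -0.29 ± 0.44 and -0.62 ± 0.41, and its value at 24 h was -0.15 without 24 h library 3 and -0.45 without 24 h library 2. Syn1 differed by -0.11 ± 0.11 at 5 days against untreated without 5-day library 1 and by -0.28 ± 0.22 with it. Stx1a, Rab3a, Syt1 and Syt4 had values between -0.27 (Syt4) and 0.07 (Rab3a) in that comparison without 5-day library 1.

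Of the adhesion genes, Ncam1, the neural cell adhesion molecule, was at 206, 208 and 179.6 CPM in untreated tumours, 168, 242 and 253 CPM at 24 h and 56.1, 162, 174 and 168 CPM at 5 days. Its 24 h libraries 3 and 4 were the highest of all, 24 h library 2 lay among 5-day libraries 2 to 4, and no 5-day value reached an untreated one. The log2 fold change was -0.40 ± 0.14 (SE) at 5 days against 24 h and -0.23 ± 0.14 against untreated (edgeR adjusted p = 0.602 and 0.673, without 5-day library 1), and with all libraries -0.66 ± 0.34 and -0.50 ± 0.34. L1cam, a partner in axon growth, was at 28.5, 42.4 and 36.1 CPM in untreated tumours, 36.8, 41.0 and 59.1 CPM at 24 h and 18.3, 32.9, 42.5 and 26.8 CPM at 5 days. The highest value was that of 24 h library 4, and the log2 fold change at 24 h against untreated was 0.35 ± 0.31 with all libraries, 0.36 ± 0.22 without 5-day library 1 and 0.12 without 24 h library 4. Cntn1, an axonal contactin, overlapped between all groups once 5-day library 1 was left out.

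Uchl1 (ENSMUSG00000029223; chr5:66676091-66687234, plus strand) was at 987, 859.9 and 904 CPM in untreated tumours, 840.0, 927 and 1020.1 CPM at 24 h and 249, 781, 818 and 883 CPM at 5 days. Rtn1, a reticulon of the endoplasmic reticulum, was at 294, 296 and 290.3 CPM in untreated tumours, 266, 327 and 319 CPM at 24 h and 94.5, 225, 292 and 284 CPM at 5 days. Gdap1, a mitochondrial protein of neurons, was at 108, 107 and 96.0 CPM in untreated tumours, 92.5, 86.5 and 97.0 CPM at 24 h and 28.8, 86.7, 98.4 and 108 CPM at 5 days. In the 9 libraries without 5-day library 1 each of these genes overlapped between untreated and treated groups, and log2 fold changes at 5 days against untreated were -0.15 ± 0.09 (SE) for Uchl1, -0.14 ± 0.11 for Rtn1 and -0.09 ± 0.10 for Gdap1. With all libraries they were -0.43 ± 0.36 for Uchl1, -0.39 ± 0.32 for Rtn1 and -0.36 ± 0.36 for Gdap1.

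In 5-day library 1, 27 of the 35 genes were at under 50% of the level of the other 5-day libraries. The summed level was 2656 CPM in it, against 7635, 7796 and 8200.4 CPM in 5-day libraries 2, 3 and 4. Per gene, the level in library 1 was a median of 33.6% of the median of these 3 libraries, against 97.6% over all tested genes. The 27 genes under 50% are 77.1% of the 35, against 16.9% of all tested genes. The level in library 1 was the lowest of all 10 libraries in 32 of 35 genes, against 38.1% of all tested genes. By role, sums in library 1 were 26.2% of that median for intermediate filaments, 30.8% for the other neuronal genes, 32.8% for RNA-binding genes and 36.0% for vesicle genes. The genes kept the most were Dpysl3 (85.7%), Mapt (84.5%), Dclk1 (80.9%) and Nova1 (64.6%), which leaves aside Prph at about 1 CPM. The lowest shares were those of Cntn1 (24.7%), Nefm (25.7%), Syp (25.7%) and Elavl4 (25.9%).

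**Figure D5:**
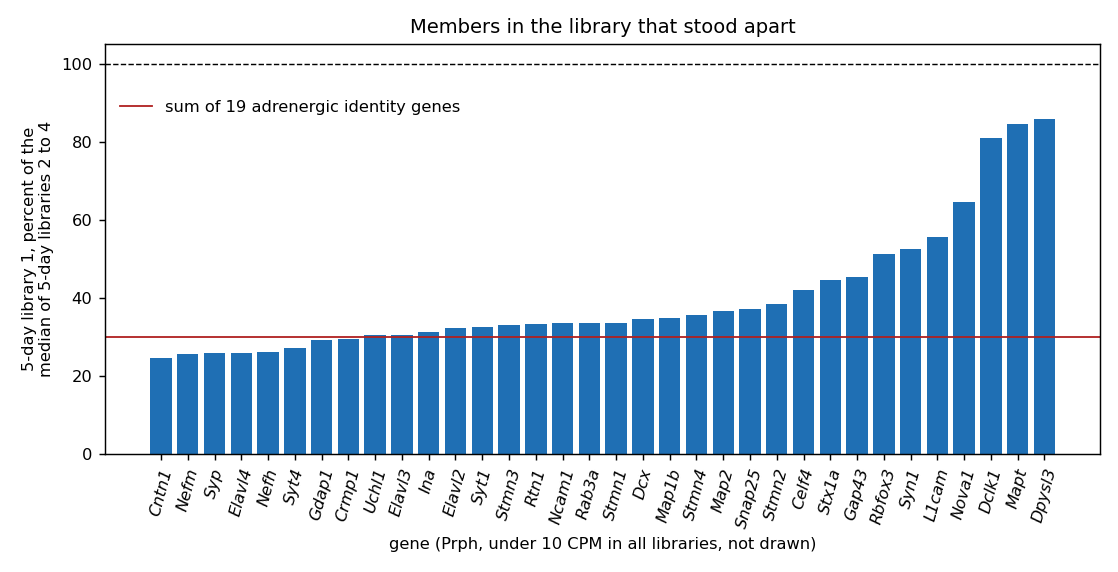
CPM in 5-day library 1 as a percent of the median of 5-day libraries 2 to 4, for 34 genes in rising order; the dashed line is 100% and the red line the same value for the sum of 19 adrenergic genes, 29.9%. Of the genes, 27 lie below 50%, and Nova1, Dclk1, Mapt and Dpysl3 lie highest, from 64.6% to 85.7%.

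Adrenergic identity genes were low in the same library, at 29.9% of the median of the other 5-day libraries. The ratio of the summed neuronal genes to the summed adrenergic genes was 3.04 in 5-day library 1 and 3.24, 2.39 and 2.81 in 5-day libraries 2, 3 and 4, against 2.08, 2.92 and 2.58 in untreated tumours, so library 1 lay within the range of the others. Mycn was at 21.6, 94.3, 96.2 and 105 CPM in the 5-day libraries, against 79.7, 112 and 100.2 CPM in untreated tumours. The proliferation gene Mki67 was at 345, 857, 920.2 and 946 CPM, against 755, 910.4 and 688 CPM. Mouse Mycn cannot be told apart from human transgene reads that align there. Markers of other organs were present in some of these libraries: adrenal cortex markers summed to 7.64, 1603, 94.5 and 11.0 CPM and skeletal muscle markers to 5.45, 405, 9.98 and 144 CPM at 5 days, against at most 12.8 and 5.95 CPM in untreated tumours. Of 8 markers of central neurons, most of the sum came from Gad2, at 14.4, 73.6, 64.4 and 44.8 CPM at 5 days, against 65.7, 35.8 and 34.5 CPM. The part of these cell types in the differences at 5 days was not tested.

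Of 93 further genes of neuronal RNA processing, cytoskeleton, synapse, adhesion, channels, proneural transcription and repression, 89 were tested, and 0 were called in any of the 3 comparisons in edgeR with all libraries or without 5-day library 1. Their median log2 fold changes without this library were 0.05 at 24 h and -0.01 at 5 days against untreated, and with all libraries 0.04 and -0.23. At 5 days against 24 h without this library, 33 were higher and 56 lower (50.5% of all tested genes were lower). Of the 89, 8 had an unadjusted p under 0.05 in edgeR, against 7.76% of all tested genes. Of these 8, 2 were higher (3.67% of all tested genes were) and 6 lower (4.09% were).

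Rbfox1, a splicing regulator related to Rbfox3, was at 113, 135 and 150.2 CPM in untreated tumours, 104, 196 and 241 CPM at 24 h and 37.5, 81.0, 114 and 98.8 CPM at 5 days. As for Elavl3, 24 h libraries 3 and 4 were the highest, with a log2 fold change of -0.89 ± 0.28 (SE, edgeR adjusted p = 0.602) at 5 days against 24 h without 5-day library 1 and -1.12 ± 0.37 with it. Lsamp, a limbic adhesion molecule, was at 11.7, 20.4 and 14.98 CPM in untreated tumours, 6.91, 37.9 and 46.3 CPM at 24 h and 8.51, 12.2, 10.5 and 6.40 CPM at 5 days. It too was high in 24 h libraries 3 and 4 alone, and its log2 fold change at 24 h against untreated was 0.95 ± 0.58 with all libraries and 0.51 without 24 h library 4. Dpysl2, which encodes the axon growth protein CRMP2, was at 193, 167 and 163 CPM in untreated tumours, 145, 189.8 and 178 CPM at 24 h and 86.0, 138, 137 and 140.2 CPM at 5 days. Its 5-day values lay below those of all other libraries, with a log2 fold change of -0.33 ± 0.11 (SE, edgeR adjusted p = 0.450) against untreated without 5-day library 1 and -0.48 ± 0.18 with it. Dclk2, a doublecortin-like kinase, was at 162, 133 and 151 CPM at 24 h, against 125, 116 and 112 CPM in untreated tumours, without overlap (log2 fold change 0.34 ± 0.11, edgeR adjusted p = 0.472, without 5-day library 1). Tubb4a, a neuronal tubulin, was at 159.9, 164 and 173 CPM in 5-day libraries 2 to 4, against 182, 188 and 202 CPM in untreated tumours. Unc13a, which primes vesicles, was at 46.2, 55.6 and 50.5 CPM in the same 5-day libraries, against 62.8, 56.8 and 71.3 CPM at 24 h. Low-level genes varied more. Scn9a, a sodium channel of peripheral neurons, was at 6.91, 8.38 and 10.6 CPM at 24 h, against 5.78, 6.29 and 6.10 CPM in untreated tumours. Sncg, a synuclein of peripheral neurons, was at 0.173, 5.59 and 7.84 CPM at 24 h, against 1.05, 1.57 and 1.57 CPM. Ncam2 was at 12.9, 16.9, 28.9 and 21.9 CPM at 5 days, against 25.0, 41.7 and 31.9 CPM in untreated tumours, and Cntn2 at 0.655, 1.03, 3.44 and 0.889 CPM, against 1.93, 5.24 and 4.36 CPM.

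Of the repressors, Rest was at 1.75, 2.44 and 4.01 CPM in untreated tumours, 2.42, 4.89 and 4.88 CPM at 24 h and 39.5, 6.03, 3.10 and 1.78 CPM at 5 days, so that only 5-day library 1 was high, the same library in which most of the neuronal genes were low and macrophage and fibroblast markers were high. Their part in this value was not tested. Without it, the log2 fold change at 5 days against untreated was 0.41 ± 0.50 (SE, edgeR adjusted p = 0.853), against 2.19 ± 1.03 with all libraries. Ptbp1 was at 99.6, 112 and 112 CPM in untreated tumours, 126, 67.9 and 89.2 CPM at 24 h and 81.2, 102, 113 and 126 CPM at 5 days, with overlap between all groups. Sox11, a factor of immature neuroblasts, was at 434, 469 and 514 CPM at 24 h, against 370.1, 474 and 391 CPM in untreated tumours, and its log2 fold change of 0.20 ± 0.38 with all libraries became -0.22 with the replicate number as a block. Insm1, a zinc finger factor of neuroendocrine precursors, was at 283, 329 and 327 CPM in 5-day libraries 2 to 4, each above each untreated value of 271, 274 and 258 CPM (log2 fold change 0.22 ± 0.09, edgeR adjusted p = 0.536, without 5-day library 1). With all libraries its log2 fold change was -0.08 ± 0.41 (SE).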

How the data were processed

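Tumour RNA of 10 libraries was compared between untreated tumours (n = 3), 24 h (n = 3) and 5 days (n = 4) of treatment. The authors deposited raw read counts per Ensembl gene, 1 column per library, with totals of 5576926 to 5696436. The submitters' processing notes name mm10 as the build and list TopHat2 2.1.1, HISAT2 and edgeR. Their roles, the counting program, the annotation behind it and its strand setting are unstated in these sources. Per the labels' protocols, tumours were flash frozen, and libraries of polyadenylated RNA were made with NEB methods. Gene symbols and lengths came from GENCODE M21, which matched 54409 of 54446 identifiers.

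Tests were run on the raw counts in edgeR 4.0.16 (R 4.3.3), after the filterByExpr filter (minimum count 10, minimum total 15) had left 14956 genes, or 14699 without 5-day library 1. Library sizes were scaled by TMM. The 10 libraries entered a single robust quasi-likelihood model, with a mean for each group and a shared estimate of the spread. Benjamini-Hochberg adjustment covered the whole table, and a gene was called at an adjusted p under 0.05. The SE of a log2 fold change is its size over the square root of F. Values per kb are CPM divided by exon length. No pair of libraries agreed within sampling noise, so none was merged. The fits were checked on simulated counts. Alternatives were DESeq2 1.42.0, its size factors, all genes with a count, genes with a mean of at least 5 CPM, a fit to the compared groups alone, a replicate block, each library left out, 5-day libraries 1 and 2 left out, limma 3.58.1 voom with quality weights, and combinations with 5-day library 1 left out.

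Values in every library are given for genes with the smallest unadjusted p of their role in a comparison, with all libraries or without 5-day library 1, or with the highest mean level of their role. Of the wider lists, the called genes would be named, and otherwise the 3 with the smallest p per comparison, and Rest, Ptbp1, Mycn, Sox10 and Mki67 in every case. Genes withheld for evaluation are not reported here. Other genes were named after their values were seen. The genes, lists and tests were chosen with earlier results of these data known. Python 3.11.15 with matplotlib 3.10.9 made the plots.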

Additional observations from a re-analysis of the deposited data

Results flagged for a closer look

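In the 5-day group of 4 libraries, library 1 lay farther below the rest than Dixon's 95% limit for the gap over the range in 10 of 35 genes. Chance passes this limit in about 1 in 20 groups, a rate that does not hold here, as library 1 stood apart across genes. It was the lowest of all 10 libraries in 38.1% of all tested genes, and the share of these past the limit was not computed. The 10 genes included, in library 1, Elavl2 at 49.96 CPM, Elavl3 at 170.2 CPM, Celf4 at 49.1 CPM, Dcx at 99.5 CPM and Crmp1 at 89.9 CPM. The others were Ina at 107 CPM, Snap25 at 119 CPM, Rab3a at 42.3 CPM, Ncam1 at 56.1 CPM and Uchl1 at 249 CPM. Their gap over range was 0.839 to 0.955. Summed levels stood apart in the same library for all 37 genes (2656 CPM), the RNA-binding genes (337 CPM), the microtubule and growth cone genes (1147 CPM) and the vesicle genes (278 CPM), all lower than in the other 5-day libraries.

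Macrophage markers at 12738 CPM and fibroblast markers at 18987 CPM, both summed, were higher in 5-day library 1 than in the other 5-day libraries beyond the same limit. Of the wider lists, Tubb4a at 51.1 CPM, Dpysl2 at 86.0 CPM and Scn9a at 2.18 CPM were lower in this library, and Rest at 39.5 CPM was higher. Cntn2 stood apart in another library, 5-day library 3, at 3.44 CPM.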

How the results depend on the processing

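The named genes gave 799 values under 21 alternative settings, of which 780 kept their direction and their side of the threshold, 1 passed it (Celf4 in DESeq2 without 5-day library 1, at 5 days against 24 h) and 18 had the other sign. No gene of the 37 was called in the other settings except Elavl4 in that DESeq2 fit, where 2 of the 37 were called. Leaving out 1 library at a time gave median log2 fold changes of the genes of -0.01 to 0.09 at 24 h against untreated, -0.45 to -0.11 at 5 days against untreated and -0.48 to -0.15 at 5 days against 24 h, the last value of each 5-day range being that without 5-day library 1. For 5 days against untreated and 5 days against 24 h, the medians were -0.10 and -0.12 without 5-day libraries 1 and 2, -0.10 and -0.18 with voom weights, -0.10 and -0.13 in DESeq2 without 5-day library 1, and -0.11 and -0.15 in that comparison's groups alone without this library. Counts over all genes at 24 h were 7 in the compared groups alone, 3 without 5-day libraries 1 and 2, 105 in DESeq2 without library 1, and 0 to 2 with 1 library left out. At 5 days against untreated DESeq2 called 21 genes, and 77 without library 1. At 5 days against 24 h DESeq2 called 3, and 20 without library 1, and edgeR called 2 without 5-day libraries 1 and 2. The cause was not tested.

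Deviations of same-numbered libraries of different times correlated at 0.21 and 0.25 between 24 h and untreated. Both values were above those of all differently numbered pairs of these groups, the highest of which was 0.053. In the pairs with 5 days, same-numbered libraries correlated at -0.39 to 0.01. With correlations at or under 0.1 among them and no label that ties a number to an animal or day, the numbers were not taken as pairs, which does not show that they carry no meaning. With the replicate number as a block and all libraries, the medians were -0.26 at 24 h and -0.55 at 5 days against untreated. In this fit number 1 held only untreated library 1 and 5-day library 1, so 5-day library 1 bears on the blocked values at 24 h. Without 5-day library 1 the blocked medians were -0.17 at 5 days against untreated and -0.15 at 5 days against 24 h, and that at 24 h is not given. With all libraries, the block turned Snap25 (-0.085), Elavl4 (-0.072) and Sox11 (-0.22) at 24 h and Nefh at 5 days against 24 h (0.046). No gene of the 37 was called with the block. Nefh in this comparison also turned to 0.03 without 24 h library 2, 0.24 without 5-day library 1, 0.26 without 5-day libraries 1 and 2, 0.23 with voom weights, 0.24 with the block without library 1, 0.25 in DESeq2 without library 1 and 0.24 in the compared groups without library 1. Insm1 at 5 days against untreated turned to 0.22 without 5-day library 1 and to 0.29, 0.22, 0.26, 0.23 and 0.23 in the last 5 of these settings, and Rest turned to -0.17 without 5-day libraries 1 and 2. Leaving out 1 library at a time gave -0.23 to 0.24 for Nefh and -0.23 to 0.22 for Insm1. Under the stricter filter (mean of at least 5 CPM) 4 values of low genes could not be had, and Prph did not pass the filter without 5-day library 2, nor did Prph and Sncg in the 24 h and untreated libraries alone. At this depth, values near 0.5 CPM rest on about 3 counts.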
